A study of Mus musculus with 12 samples.

Results

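Small nucleolar RNAs (snoRNAs), the related guide RNAs of Cajal bodies and a few other small housekeeping RNAs were followed in cultured heart muscle cells of mice with and without the kinase CaMKII. The RNAs were taken as every probe set whose gene symbol starts with Snord, Snora or Scarna, or is Rmrp, Rpph1 or Terc. This gave 110 of the 24704 genes with a probe set in the deposited values, made up of 65 Snord, 34 Snora and 8 Scarna genes and the 3 others. Of the 110, 63 (33 Snord, 25 Snora, 3 Scarna, Rmrp and Rpph1) lay above the median signal of their array on at least 3 of 12 arrays and were tested. The other 47 were dim, and 0 of the 63 cleared this limit in only 1 group.

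Snord genes encode box C/D snoRNAs, most of which guide the methylation of ribosomal RNA, and Snora genes encode box H/ACA snoRNAs, most of which guide the conversion of its uridines to pseudouridine. Scarna genes encode guides of the same build that act on spliceosomal RNAs in Cajal bodies. Most snoRNAs of mammals are cut out of introns of other genes, whereas Rmrp and Rpph1, the RNA parts of the RNA-cutting enzymes RNase MRP and RNase P, are transcribed from genes of their own by RNA polymerase III. Heart muscle cells rarely divide in the adult but enlarge when stimulated, which calls for more ribosomes.

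The cells were ventricular myocytes of adult mice, obtained by enzyme perfusion of the heart on a Langendorff apparatus and held for 24 h with 100 nM isoprenaline (Iso), an agonist of beta-adrenergic receptors, or without it. The mice were either double knockouts lacking the delta and gamma forms of CaMKII (DKO) or the matching wild type (WT), and the labels do not say how or in which cells the genes were deleted. Each of 6 mice, 3 per genotype, gave 1 untreated and 1 Iso-treated array, so the 4 groups hold 3 arrays each and this number limits the precision. Values are log2 signals summarised by the method RMA; a difference of 1 is a doubling. A gene is said to have risen or fallen only where the adjusted p of limma, a moderated linear model fitted to all 12 arrays and adjusted over 13737 genes, was under 0.05. In RNA from many cells, fewer cells of a type and less RNA per cell cannot be told apart. Whether a probe set named for a small RNA detected the mature RNA, its precursor or the transcript that holds it was not determined.

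The labels were checked first. Camk2g, the gamma form, read 4.78 to 5.80 on the 6 WT arrays and 3.57 to 4.20 on the 6 DKO arrays, with no overlap. Camk2d, the delta form, read 7.94 to 8.42 against 7.36 to 7.98, which overlap; a probe set outside the deleted part of a gene checks nothing. All 9 myocyte markers examined lay between 9.47 and 13.7 on every array. All 14 endothelial markers also lay above the array median on all 12 arrays, so RNA of vessel cells was present. Untreated DKO array 3 stood apart: its median correlation with the other arrays was 0.956, against at least 0.984 for the others.

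The small RNAs moved with this array. Over the 55 members whose mean signal lay above the array median, called the brighter members below, the median deviation from the 12-array mean was 0.90 on untreated DKO array 3. It was 0.16 and -0.21 on the other untreated DKO arrays, and ranged from -0.44 to -0.18 over untreated WT arrays, -0.07 to 0.28 over Iso-treated WT arrays and -0.05 to 0.01 over the DKO arrays with Iso. Untreated DKO array 3 was the highest of the 12 for 39 of the 110 members, or 35.5%, against 20.7% of all genes. The median deviation over the 14 endothelial markers was likewise highest there, at 0.62. Elsewhere this median ranged from -0.28 to 0.22. Not every marker was high on that array. Fabp4 had its lowest value of the 12 arrays there (10.87), and Emcn (5.78) and Vwf (4.68) lay below their 12-array means of 5.99 and 4.79. The median over the RNA signals of 21 genes whose proteins build snoRNA particles was lowest there, at -0.33. So was that over the 9 myocyte markers, at -0.30, against -0.13 to 0.26 on the other arrays. Of these markers Tnni3 went the other way, at 13.43 on that array against a 12-array mean of 13.38. The part of these shifts in the small RNA results was not tested. The main differences that use untreated DKO arrays are therefore also given without array 3.

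**Figure D1:**
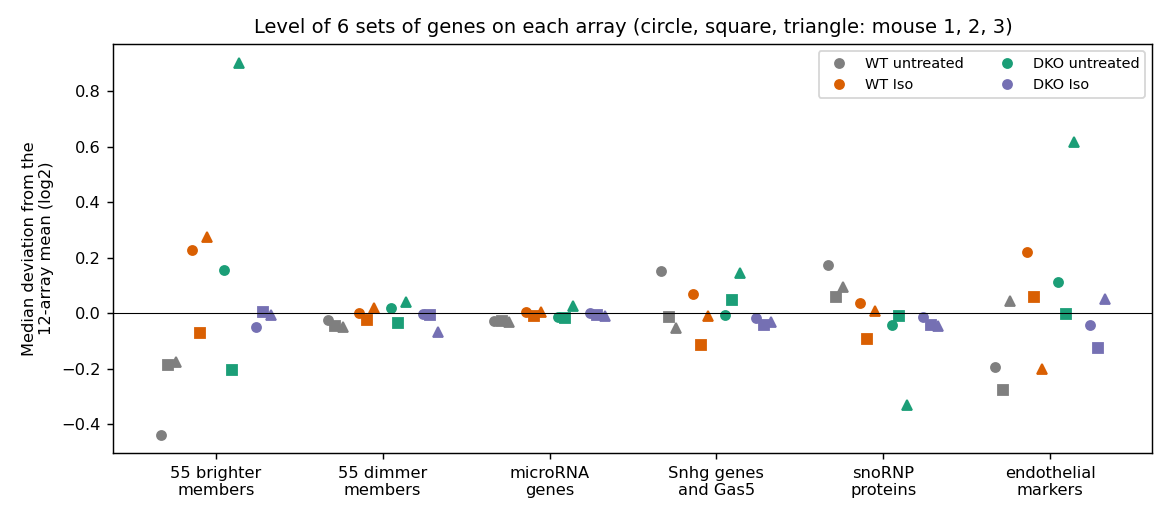
Median deviation from the 12-array mean (log2, y axis) of 6 sets of genes on each of the 12 arrays; colours mark the 4 groups and symbols the mouse. The 55 brighter members reach 0.90 on untreated DKO array 3 (green triangle) and are lowest on the 3 untreated WT arrays and untreated DKO array 2, while the 55 dimmer members and the microRNA genes stay near 0.

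As a group, untreated WT cells had the lowest mean signal for more members than any other group. The group mean was lowest in untreated WT for 58 of the 110 members, against 22.3% of all genes. It was highest in untreated DKO for 44 members, against 30.9% of all genes, and in Iso-treated WT for 32, against 22.1%. Without untreated DKO array 3 the order of the latter groups turned, with 30 members highest in untreated DKO, near the 29.3% of all genes, and 44 in Iso-treated WT, against 23.2%. The comparisons below share arrays: untreated WT enters the Iso effect in WT, the genotype difference without Iso and the difference between Iso effects, and untreated DKO enters 3 of them as well. Their values are therefore given side by side and not as independent evidence.

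With Iso, WT cells had higher signals of most small RNAs, although no member passed the test. Of the 110, 87 lay above 0, where 49% of all genes did, with a median log2 difference of 0.14 against -0.00 over all genes. All 3 treated arrays lay above all 3 untreated arrays for 22 members and below them for 2, against 6.53% and 7.14% of all genes. Of the 63 tested, 0 passed limma's adjusted p, where 0.0218% of genes did, and 13 were higher and 0 lower at an unadjusted p under 0.05 (3.46% and 3.24% of genes). Snord71 came nearest, with an adjusted p of 0.0521. Without untreated DKO array 3, which enters only through the shared spread, Snord71 (adjusted p = 0.0329) and Snord17 (adjusted p = 0.00930) passed, where 0.0582% of genes did. Of the 14 endothelial markers 12 lay above 0 as well (median 0.20), as did all 5 mesothelial (0.24), all 3 atrial (1.45) and all 9 myocyte markers (0.08). Above 0 were also 4 of 11 macrophage and leukocyte, 3 of 7 fibroblast and 1 of 6 smooth muscle and pericyte markers. The atrial markers varied within the group, with median deviations of 2.33, 2.11 and -1.01 on Iso-treated WT arrays 1, 2 and 3. In these lists 0 markers passed, and their part in the result was not tested.

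In DKO cells the signals of most members were lower with Iso, and their excess shrank without untreated DKO array 3. Of the 110, 36 lay above 0 and 74 below, where 48.7% of all genes lay above 0, with a median of -0.09. Without that array 48 lay above 0 and 62 below (50% of all genes above), with a median of -0.05. For the 55 brighter members the median went from -0.38 to -0.03. Groups did not overlap for 8 members that were higher and 15 that were lower, against 8.32% and 8.71% of genes; without that array there were 16 of each, against 14.3% and 14.2%. Of the 63 tested, 0 passed limma's adjusted p (0.051% of genes did, 0.0437% higher), with 5 higher and 12 lower at an unadjusted p under 0.05 (9.46% and 8.94% of genes). The lowest adjusted p was 0.0692, for Snord13. Without untreated DKO array 2, on which the brighter members were low, 6 members passed, all with lower signals, among them Snord13, Rmrp, Snora73b and Snord104, where 4.4% of all genes passed. Of the endothelial markers 12 of 14 lay below 0 (median -0.27; 9 of 14 and -0.08 without untreated DKO array 3), and of the macrophage and leukocyte markers 10 of 11 (-0.49; -0.43). All 9 myocyte markers lay above 0 (median 0.22; 0.13 without that array). The part of these markers was not tested.

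The difference between these effects, DKO minus WT, lay below 0 for 82 of the 110 members and above 0 for 28, where 49% of all genes lay above 0. The median was -0.21, and -0.77 over the brighter members. Without untreated DKO array 3 the counts were 81 and 29 (49.9% of all genes above 0), with medians of -0.19 and -0.42. Of the 63 tested, 0 passed with limma, where 0.0146% of genes did, and 0 were higher and 21 lower at an unadjusted p under 0.05 (5.48% and 4.62% of genes). Without that array Rmrp (-2.76) and Snord71 (-2.18) passed, both with an adjusted p of 0.0481, where 0.051% of genes did. Without untreated DKO array 2, 4 passed (Rmrp, Snord17, Snord71 and Snora73b), where 0.116% of genes did, and Snord71 passed without Iso-treated DKO array 2 (adjusted p = 0.0449), where 0.0218% did. Endothelial markers lay below 0 for 12 of 14 (median -0.51; -0.30 without untreated DKO array 3), and so did all 3 atrial markers (-1.20; -1.39) and all 5 mesothelial markers (-0.40; -0.36). Their part was not tested.

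Without Iso, DKO cells had higher signals than WT cells for most members, and Snord71 and Rmrp rose. Of the 110, 78 lay above 0, where 50.3% of all genes did, with a median of 0.14, and 0.63 over the brighter members. On untreated DKO array 2 the median deviation of the brighter members was -0.21, within the -0.44 to -0.18 of the untreated WT arrays. Without untreated DKO array 3, 73 of the differences lay above 0 (49.4% of all genes), with medians of 0.11 and 0.31. The groups did not overlap for 29 members that were higher and 5 that were lower, against 7.16% and 7.77% of genes, and without that array for 33 and 10, against 12.9% and 14.4%. Of the 63 tested, 2 rose and 0 fell in limma's test, where 0.204% of genes passed in either direction and 0.102% rose. The same 2 passed without untreated DKO array 3, where 0.335% of genes did. Without untreated DKO array 2, 10 passed, all with higher signals, where 1.31% of genes passed. Of the endothelial markers 11 of 14 lay above 0 (median 0.42; 0.28 without array 3), 7 of them at an unadjusted p under 0.05 and 0 past limma's adjusted p; their part was not tested. At an unadjusted p under 0.05, 25 were higher and 0 lower (6.36% and 7.45% of genes).

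With Iso in both genotypes, DKO signals lay a little below WT signals. Of the 110, 43 lay above 0 and 67 below, where 50.1% of all genes lay above 0, with a median of -0.08. The groups did not overlap for 2 members that were higher and 10 that were lower, against 7.33% and 7.28% of genes. Of the 63 tested, 0 passed with limma, where 0.306% of genes did, and 0 were higher and 3 lower at an unadjusted p under 0.05 (3.73% and 4.18% of genes): Snora81, Snord17 and Snord89. Snora81 had the lowest adjusted p, 0.103, and passed without untreated DKO array 3 (-0.81, adjusted p = 0.0367), where 1.19% of genes did. All 11 macrophage and leukocyte markers tested (median -0.35, 2 of them passing) and all 3 atrial markers (-1.44) lay below 0 here, while the endothelial markers had a median of 0.01; the part of these was not tested.

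**Figure D2:**
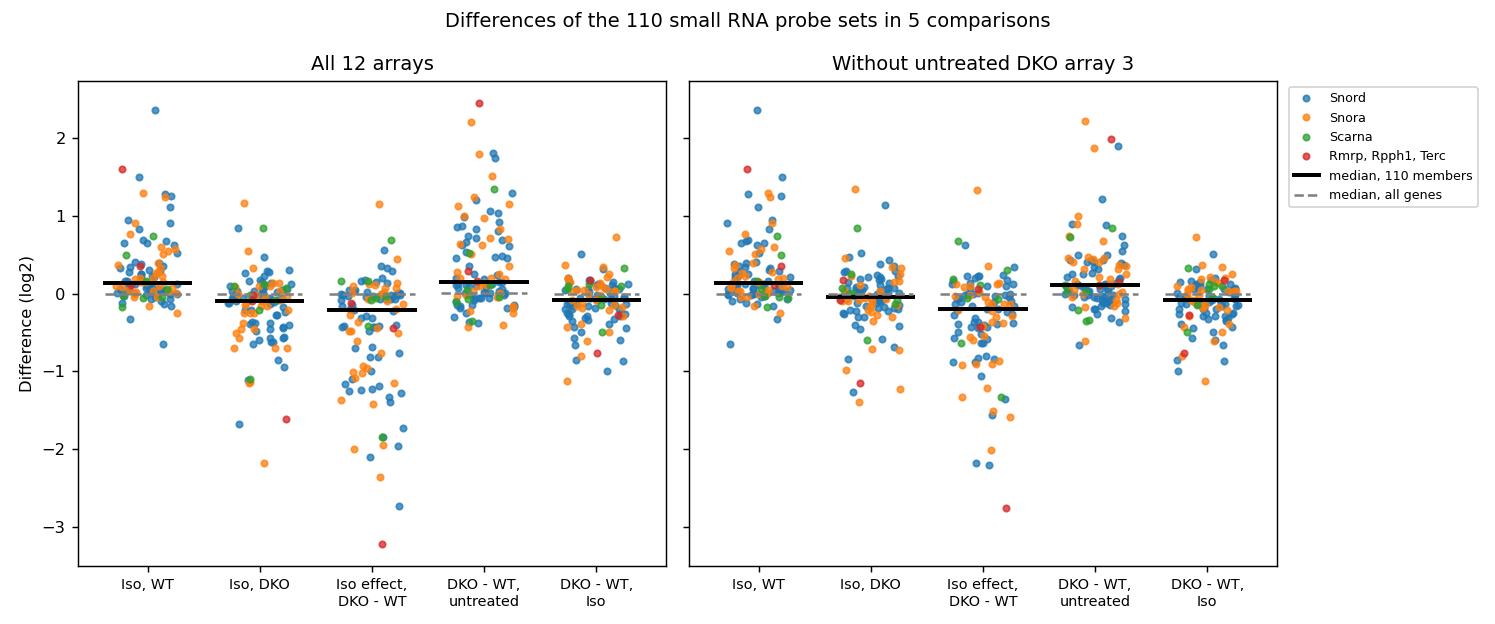
Log2 difference (y axis) of each of the 110 small RNA probe sets in the 5 comparisons, with all 12 arrays (left) and without untreated DKO array 3 (right); points are coloured by class, black bars are the median of the members and dashed grey bars that of all genes. The member medians are 0.14, -0.09, -0.21, 0.14 and -0.08 on the left and 0.14, -0.05, -0.19, 0.11 and -0.08 on the right, and the points below -1 in the DKO comparison with Iso become fewer on the right.

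Rmrp is the RNA of RNase MRP, which cuts precursor ribosomal RNA. WT cells gave 3.80, 4.78 and 4.87 untreated and 6.54, 5.70 and 6.04 under Iso, and DKO cells gave 6.80, 6.15 and 7.85 untreated and 5.11, 5.53 and 5.33 under Iso. Every untreated WT array lay below every array of the other groups, and the Iso-treated DKO arrays lay below the untreated DKO arrays and below the Iso-treated WT arrays. Rmrp rose 5.47-fold in untreated DKO over untreated WT (log2 difference 2.45, SE 0.38, limma adjusted p = 0.0200), and by 1.99 (adjusted p = 0.0199) without untreated DKO array 3. This call was lost without untreated DKO array 1 (adjusted p = 0.0720), untreated WT array 1 (0.124) or untreated WT array 2 (0.0701), with no filter on dim genes (0.0688) and with only the 6 arrays compared (0.282). The Iso effects were 1.61 in WT (SE 0.38, limma adjusted p = 0.350) and -1.61 in DKO (SE 0.38, adjusted p = 0.0830; -1.15 without untreated DKO array 3), differing by -3.22 (SE 0.54, adjusted p = 0.102; -2.76). The genotype difference with Iso was -0.77 (SE 0.38, adjusted p = 0.682).

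Rpph1, the RNA of RNase P that trims the ends of transfer RNA precursors, kept nearly the same signal throughout. WT arrays spanned 11.60 to 12.07 untreated and 11.83 to 12.16 under Iso, DKO arrays 11.71 to 12.54 and 11.97 to 12.26, and all 4 groups overlap. Its largest difference over the 5 comparisons was 0.29 (SE 0.20), between the untreated genotypes, and 0.10 there without untreated DKO array 3. RNase P and RNase MRP share most of their proteins, yet the 2 RNAs differed in how far their signals moved; that difference was not tested. Terc, the template RNA of telomerase, was dim, at 3.02 to 3.92, and was not tested.

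**Figure D3:**
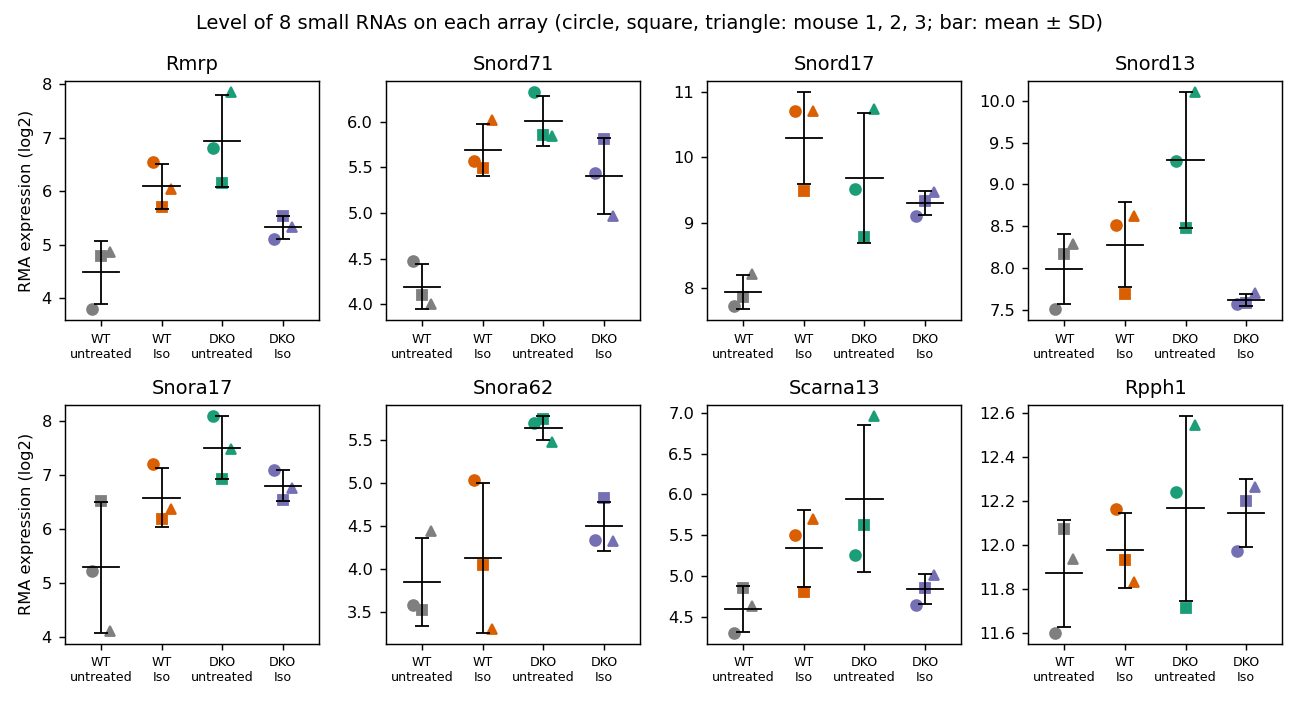
Log2 signal (y axis) of 8 small RNAs on each array, by group (x axis); circles, squares and triangles are mouse 1, 2 and 3 of a genotype, and bars give the mean ± SD of 3 arrays. Rmrp and Snord71 are lowest on the 3 untreated WT arrays, Snord13 is tight in Iso-treated DKO (7.57 to 7.70), and Rpph1 stays between 11.60 and 12.54.

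Among the box C/D snoRNAs, Snord71 had the smallest adjusted p of all members with Iso in WT, between the untreated genotypes and for the difference of the Iso effects. WT cells gave 4.47, 4.10 and 4.01 untreated and 5.57, 5.49 and 6.02 under Iso, and DKO cells gave 6.33, 5.85 and 5.84 untreated and 5.44, 5.81 and 4.97 under Iso. The untreated WT arrays lay below all 9 others. The untreated DKO arrays lay above all Iso-treated DKO arrays, while the Iso-treated WT arrays overlap both DKO groups. Snord71 rose 3.52-fold in untreated DKO over untreated WT (1.81, SE 0.23, limma adjusted p = 0.00720), and by 1.90 (adjusted p = 0.00466) without untreated DKO array 3. With only the 6 arrays compared this call was lost (adjusted p = 0.0624). The Iso effect was 1.50 in WT (SE 0.23, limma adjusted p = 0.0521) and -0.60 in DKO (SE 0.23, adjusted p = 0.187; -0.68 without untreated DKO array 3), with a difference of -2.10 (SE 0.32, adjusted p = 0.0952). With Iso the genotypes differed by -0.29 (SE 0.23, adjusted p = 0.856).

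Snord17, with an SD of 1.05 over the 12 arrays among the 5 members that varied most, went from 7.73, 7.87 and 8.22 to 10.70, 9.48 and 10.70 under Iso in WT cells, a difference of 2.36 (SE 0.42, limma adjusted p = 0.184). DKO cells gave 9.52, 8.79 and 10.74 untreated and 9.10, 9.33 and 9.47 under Iso. Here too the untreated WT arrays lay below all others, while the groups of the DKO mice overlap. Its Iso effect in DKO was -0.38, and 0.15 without untreated DKO array 3, so its sign rests on that array. Snord14e gave 7.68, 8.59 and 8.27 in untreated WT cells and lay between 9.28 and 9.66 on all 6 Iso-treated arrays. On the untreated DKO arrays it gave 9.44, 8.69 and 10.01, and its Iso effect was 1.25 (SE 0.29, adjusted p = 0.333) in WT and 0.06 in DKO, or 0.38 without untreated DKO array 3.

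Snord13, also named U13, which takes part in the acetylation of small-subunit ribosomal RNA, had the smallest p of all members with Iso in DKO. DKO cells gave 9.28, 8.48 and 10.11 untreated and 7.57, 7.58 and 7.70 under Iso, with no overlap. The difference was -1.67 (SE 0.35, limma adjusted p = 0.0692), and -1.27 (adjusted p = 0.0903) without untreated DKO array 3. WT cells gave 7.51, 8.17 and 8.29 untreated and 8.52, 7.70 and 8.63 under Iso, which overlap. Snord104 had the same order of groups in DKO, with 8.37, 7.99 and 9.28 untreated and 7.85, 7.53 and 7.40 under Iso (-0.95, SE 0.27, adjusted p = 0.109; -0.58 without that array). Snord89 went from 8.58, 9.20 and 9.66 to 10.60, 10.14 and 10.55 in WT cells (1.28, SE 0.38, adjusted p = 0.464).

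Snord118, the U8 RNA needed for processing of large-subunit ribosomal RNA, was dim, at 2.71 to 3.45 on 11 arrays and 4.20 on untreated DKO array 3. Snord100, which had the highest mean among the Snord probe sets, spanned 10.81 to 11.52 untreated and 11.62 to 12.03 under Iso in WT cells (0.69, SE 0.32, adjusted p = 0.751). Snord34 spanned 9.28 to 10.61 and 10.70 to 11.11 in the same groups (0.91, SE 0.37, adjusted p = 0.685). In untreated DKO these RNAs spanned 10.89 to 12.57 and 10.15 to 11.81, which takes in nearly all values of the other groups. Snord61 varied widely within a group, at 2.64, 4.19 and 6.14 on the untreated DKO arrays, and its genotype difference without Iso was 0.87, or -0.04 without untreated DKO array 3.

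Among the box H/ACA snoRNAs, Snora17 and Snora62 came nearest to a genotype difference without Iso. Snora17 gave 5.23, 6.52 and 4.11 in WT cells against 8.10, 6.93 and 7.47 in DKO cells (2.21, SE 0.49, limma adjusted p = 0.107), and under Iso 7.19, 6.18 and 6.36 against 7.10, 6.53 and 6.76. Snora62 gave 3.58, 3.53 and 4.44 in WT cells against 5.70, 5.75 and 5.48 in DKO cells (1.79, SE 0.36, adjusted p = 0.0849). For both the untreated groups do not overlap, and the value without untreated DKO array 3 was as large, at 2.23 and 1.88. Under Iso, Snora62 gave 5.04, 4.05 and 3.31 in WT cells against 4.35, 4.83 and 4.33 in DKO cells, which overlap.

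Snora73a and Snora73b, near-identical copies named U17 that act in the first cuts of precursor ribosomal RNA, may share signal, so their values are uncertain. Snora73b read 5.42, 3.82 and 5.09 in untreated DKO and 3.48 to 4.06 on the 9 other arrays, so untreated DKO array 2 lay among the other groups. Its Iso effect in DKO was -1.14 (SE 0.31, limma adjusted p = 0.105), and -0.99 without untreated DKO array 3. Snora73a was dim, at 2.61 to 3.10. Snora81 was low throughout. WT arrays spanned 2.88 to 3.06 untreated and 3.21 to 3.88 under Iso, DKO arrays 2.94 to 3.38 and 2.56 to 2.85, so that all Iso-treated DKO arrays lay below all others.

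Among the other named H/ACA snoRNAs, Snora41 spanned 4.35 to 4.37 untreated and 4.60 to 4.74 under Iso in DKO cells (0.33, SE 0.12, limma adjusted p = 0.180; 0.33 without untreated DKO array 3), the opposite direction to most members. Snora34, the Snora probe set with the highest mean, gave 9.73, 10.26 and 9.61 in untreated WT cells and lay between 10.27 and 11.78 on the other 9 arrays. Snora30 had the largest spread of all 110 members, reading 8.11 on untreated DKO array 3 and 3.97 to 6.39 elsewhere. Its Iso effect in DKO was -2.18 (SE 0.62, adjusted p = 0.113), and -1.40 without that array.

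Of the 8 Scarna RNAs, 3 were tested and 0 passed in any comparison. Scarna13 gave 4.31, 4.86 and 4.64 in untreated WT cells against 5.26, 5.62 and 6.96 in untreated DKO cells, with no overlap (1.35, SE 0.36, limma adjusted p = 0.164; 0.84 without untreated DKO array 3). Under Iso the values were 5.50, 4.81 and 5.70 against 4.65, 4.86 and 5.02, which overlap. Scarna3b went the other way in DKO, from 5.59, 5.39 and 5.47 without Iso to 6.53, 6.07 and 6.40 with it (0.85, SE 0.23, adjusted p = 0.105; 0.85 without that array as well). Scarna6 spanned 2.58 to 2.76 on the untreated WT arrays and 2.75 to 3.81 on the others. Scarna2, Scarna3a, Scarna8, Scarna9 and Scarna10 were dim, between 2.33 and 3.57 on all arrays.

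The effect of Iso can be read within each mouse, since each gave both arrays. For 8 of the 110 members the signal was higher with Iso in all 3 WT mice and lower in all 3 DKO mice, against 1.9% of all genes, and for 0 it was the reverse, against 2.23%. With DKO mouse 3 left aside, 8 members were higher in all 3 WT mice and lower in DKO mice 1 and 2, against 3.17% of all genes. The 8 over all mice were Rmrp, Snord71 and Snora81, which were tested, and the dim Snord118, Snord1b, Snord35a, Snord43 and Snord85. The dim ones met the rule in part on changes close to 0. These were -0.003 for Snord1b in DKO mouse 1, and 0.007 for Snord43 and 0.016 for Snord85 in WT mouse 2. Snord35a changed by 0.030 in WT mouse 3 and Snord118 by 0.042 in WT mouse 1. For Rmrp the changes were 2.74, 0.92 and 1.17 in the WT mice and -1.68, -0.62 and -2.53 in the DKO mice. For Snord71 they were 1.10, 1.39 and 2.01 against -0.89, -0.04 and -0.87, so DKO mouse 2 was close to no change. For Snora81 they were 0.48, 0.33 and 0.85 against -0.69, -0.14 and -0.53.

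**Figure D4:**
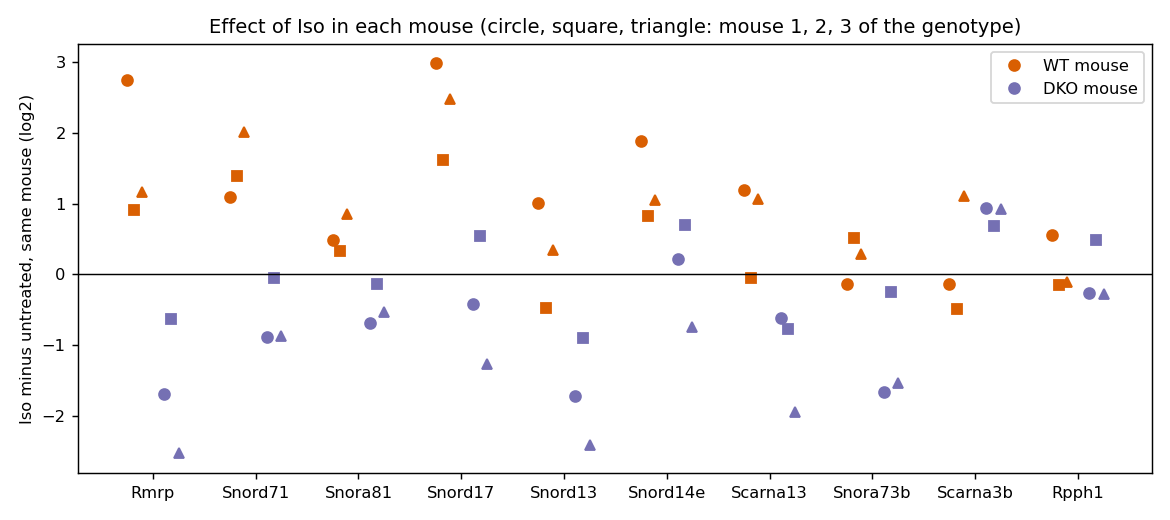
Iso minus untreated log2 signal (y axis) within each mouse for 10 small RNAs (x axis), in WT (orange) and DKO mice (purple); symbols mark the mouse. For Rmrp, Snord71 and Snora81 all WT mice lie above 0 and all DKO mice below, and DKO mouse 3 (purple triangle), whose untreated array stood apart, reaches -2.53 for Rmrp.

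Most members lie inside another gene. In a RefSeq gene table (GRCm38.p6) 103 of the 110 fell within a listed gene, 80 of them in a protein-coding gene, among which 31 were ribosomal protein genes, and 23 in a long non-coding RNA gene; that table gives no strand. A probe set was present for the holding gene of 85 members, 65 different genes. Of these 65, 57 cleared the filter and were tested, and 0 of the 57 passed limma's adjusted p in any comparison with all 12 arrays. When untreated DKO array 3 was left out, Cop1, which holds Scarna3a, passed between the untreated genotypes (adjusted p = 0.0496), and Zfas1, 2410006H16Rik and 1110038B12Rik between the genotypes with Iso. Over all 65 the median difference was 0.01 with Iso in WT, where the members they hold had 0.11. Between the untreated genotypes it was -0.05, where those members had 0.10 (-0.04 and 0.05 without that array). Across the 85 pairs, which share arrays and in part the holding gene, Pearson's r between the difference of the small RNA and that of its holding gene was 0.06 with Iso in WT, 0.06 with Iso in DKO, -0.04 for the difference of these and -0.02 and -0.00 between the genotypes without and with Iso. Without that array, r was 0.01 with Iso in DKO, -0.06 for the difference of the effects and 0.08 between the untreated genotypes. In 41 of the 85 pairs both probe sets were tested. In the rest at least 1 was dim, which limits what r can show. Over the 41, r was 0.07 with Iso in WT and 0.04 with Iso in DKO. It was -0.02 for the difference of these and 0.02 and -0.00 between the genotypes without and with Iso. Without untreated DKO array 3 it was -0.11 with Iso in DKO, -0.14 for the difference and 0.08 between the untreated genotypes.

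The pairs of the leading members are given with Iso in WT and then between the untreated genotypes. Ap1g1, a clathrin adaptor subunit whose gene holds Snord71, differed by 0.19 with Iso in WT and by -0.01 between the untreated genotypes, where Snord71 differed by 1.50 and 1.81; without untreated DKO array 3 the second pair was 0.23 and 1.90. Snx5, a sorting nexin holding Snord17, differed by -0.00 and -0.59, where Snord17 differed by 2.36 and 1.74, the second pair being -0.43 and 1.21 without that array. Hspa8, a chaperone holding Snord14e, differed by -0.23 and -0.47, and by -0.11 in place of -0.47 without that array. Snhg7, a non-coding gene holding Snora17, differed by 0.36 and -0.05 (-0.01 without that array), and Rpsa, a ribosomal protein gene holding Snora62, by -0.11 and -0.09 (0.13 without it). Snhg7 was dim, at 3.33 to 3.53 on the Iso-treated WT arrays and 2.87 to 3.24 on the others, where the array median is near 3.31. It cleared the filter only through Iso-treated WT, where it was highest, so its differences say little. Eif4a2, a translation initiation helicase holding Snora81, differed by -0.01 between genotypes with Iso, where Snora81 differed by -0.81. Snhg3, Snhg10, Eef1b2 and Dcaf5, which hold Snora73b, Scarna13, Snora41 and Scarna3b, did not pass in any comparison.

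**Figure D5:**
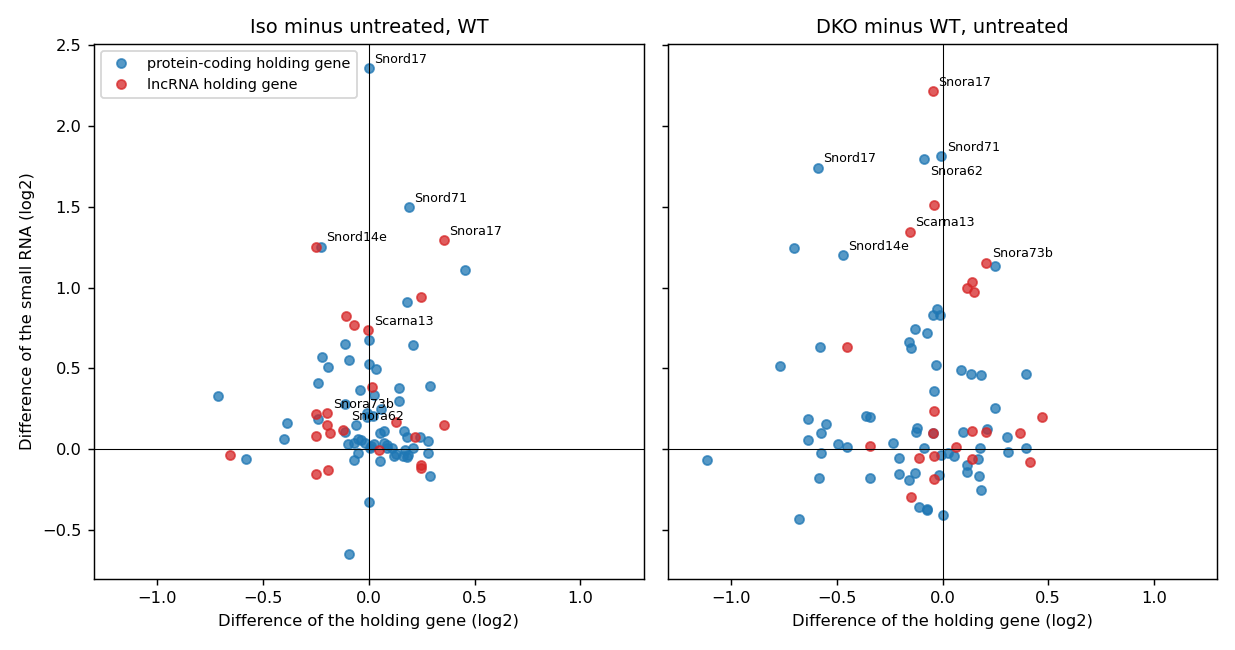
Log2 difference of each small RNA (y axis) against that of the gene it lies in (x axis) for 85 pairs, with Iso in WT (left) and between untreated DKO and WT (right); blue marks protein-coding and red long non-coding holding genes. Snord17, Snord71 and Snora17 lie high while their holding genes lie between -0.59 and 0.36, and Pearson's r is 0.06 and -0.02. In 41 of the 85 pairs both probe sets were tested, and Snhg7, which holds Snora17, was dim outside Iso-treated WT.

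The starts of the holding genes of Snord71, Snora17 and Snora62 are shown because these are the snoRNAs inside a gene that led the genotype comparison without Iso. Sequences are RefSeq promoters on GRCm38.p6, read 5′ to 3′ along the gene, from 250 bases before to 50 bases after the start, with the first 10 transcribed bases in capitals.
Ap1g1 (chr8:109778333-109778632, plus strand): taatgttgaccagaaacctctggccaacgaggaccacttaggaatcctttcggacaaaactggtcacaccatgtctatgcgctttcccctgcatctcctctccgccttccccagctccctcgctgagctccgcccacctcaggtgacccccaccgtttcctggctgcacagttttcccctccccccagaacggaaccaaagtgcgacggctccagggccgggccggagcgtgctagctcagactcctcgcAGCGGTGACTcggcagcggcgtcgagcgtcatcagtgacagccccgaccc
Snhg7 (chr2:26640195-26640494, minus strand): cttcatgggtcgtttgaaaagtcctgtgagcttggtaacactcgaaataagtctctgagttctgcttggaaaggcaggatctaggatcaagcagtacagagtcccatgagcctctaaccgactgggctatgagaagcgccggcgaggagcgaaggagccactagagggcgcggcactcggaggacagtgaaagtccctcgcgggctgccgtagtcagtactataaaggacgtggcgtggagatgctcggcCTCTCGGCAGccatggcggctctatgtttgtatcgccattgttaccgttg
Rpsa (chr9:120127516-120127815, plus strand): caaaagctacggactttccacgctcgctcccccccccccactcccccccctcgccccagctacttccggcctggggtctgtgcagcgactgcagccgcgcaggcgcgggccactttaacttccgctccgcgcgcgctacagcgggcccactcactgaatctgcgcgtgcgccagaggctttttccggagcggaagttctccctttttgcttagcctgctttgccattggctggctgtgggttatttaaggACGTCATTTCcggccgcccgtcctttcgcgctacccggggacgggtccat
The palindromic cyclic AMP response element TGACGTCA, searched on both strands, is in none of the 3 windows and in 1.79% of 32851 promoters. TATAAA, searched on both strands, is in the Snhg7 window, with its first base 30 bases before the start, and in 13.6% of promoters. Genes of the translation machinery often start with a run of C and T. From 5 bases before to 15 after the start, the longest such run is 3 bases in Ap1g1, 6 in Snhg7 and 5 in Rpsa. Of 77 holding genes, 65 had a promoter in the table, a different set from the 65 with a probe set. Of these, 11 had a run of at least 8 in any of their promoters. Over all promoters, each counted singly, the share was 6.68%. A gene with several promoters has more chances to reach 8, so the 11 of 65 and this share cannot be compared directly. These matches describe the letters of the windows only.

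The 7 members outside any listed gene were Rmrp, Rpph1, Terc, Snord13, Snord89, Snord118 and Scarna2. Their median difference between untreated DKO and WT was 0.69, with 6 of 7 above 0, and 0.39 without untreated DKO array 3. With Iso in DKO, 0 of 7 lay above 0 (median -0.56), and 2 of 7 (median -0.08) without that array. Of the imprinted snoRNA clusters, Snord64 alone was among the members; it lies in Snhg14 and was dim, at 2.39 to 2.60. The 31 members inside ribosomal protein genes had medians of 0.46 between the untreated genotypes (0.21 without untreated DKO array 3) and 0.16 with Iso in WT.

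None of the listed genes whose proteins work with these RNAs passed the test on RNA signal, with or without untreated DKO array 3. Protein levels were not measured. The tested genes encode 18 proteins that form or assemble snoRNA particles, 7 of Cajal bodies and telomerase and 10 of RNase P and RNase MRP. A further 21 encode proteins of ribosomal RNA synthesis and 15 of RNA polymerase III and small nuclear RNA transcription. Of all these genes, 0 passed in any of the 5 comparisons with limma. The RNase P and RNase MRP subunits Rpp21 and Pop7 differed by -1.08 (SE 0.19, adjusted p = 0.0607) and -0.96 (SE 0.28, adjusted p = 0.118) with Iso in DKO, or by -0.91 and -0.70 without untreated DKO array 3. Maf1, a repressor of RNA polymerase III, differed by -1.10 (SE 0.30, adjusted p = 0.102) and the snoRNA particle assembly factor Pih1d1 by -0.76 (SE 0.18, adjusted p = 0.0760) in the same comparison, or by -0.86 and -0.60 without that array. Between untreated genotypes the assembly factor Znhit6 differed by -0.74 (SE 0.20, adjusted p = 0.168; -0.47 without that array), and Polr1b, a subunit of RNA polymerase I, by -0.52 (SE 0.17, adjusted p = 0.598) with Iso in WT. Over the genes of snoRNA particle proteins the median was -0.12 with Iso in WT and -0.14 between untreated genotypes, with 5 and 4 of 18 above 0. The latter was -0.07, with 8 of 18 above 0, without untreated DKO array 3, on which the median of the measured ones was lowest.

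Other small RNAs were set beside them. Of 543 probe sets named for microRNA genes, 60.4% lay above 0 with Iso in WT and 60.8% between untreated genotypes, with medians of 0.03 in each, beside the 0.14 of the snoRNAs and their relatives. The second share was 56.5% (median 0.02) when untreated DKO array 3 was left out. The microRNA set was dimmer, with 143 of 543 tested, against 63 of the 110 members. Over the tested ones the medians with Iso in WT were 0.14 for the microRNA genes and 0.33 for the members. Of the 143, 2 rose with Iso in WT, where 0.0218% of all genes did. Of the 19 snoRNA host transcripts named Snhg and Gas5, 5 lay above 0 with Iso in WT (median -0.07). The abundant RNA polymerase III product Rn7sk had group means of 13.05 and 13.34 in WT cells (untreated, Iso) and 13.37 and 13.25 in DKO cells. Rny1, a Y RNA, had 10.75 and 10.79 in WT and 11.32 and 10.94 in DKO cells, and its difference between the untreated genotypes was 0.57, or 0.20 without untreated DKO array 3. The minor spliceosome RNA Rnu11 had 7.97 and 8.54 in WT and 8.06 and 8.80 in DKO cells, higher with Iso in both genotypes (0.56 in WT and 0.74 in DKO). Rn7sk, Rny1 and Rnu11 did not pass in any comparison. The signed difference went with mean signal in some comparisons only. Across the 110 members, which share the arrays, Pearson's r of that difference with the mean signal was 0.58 with Iso in WT. Between untreated genotypes it was 0.46 (0.30 without untreated DKO array 3). For the difference of the Iso effects it was -0.43 (-0.33), with Iso in DKO -0.15 (0.13) and between genotypes with Iso -0.19. With log2 length, r was 0.24 with Iso in WT and 0.32 between untreated genotypes (0.34 without array 3). The 55 dimmer members had medians of 0.04 with Iso in WT and 0.06 between untreated genotypes, against 0.34 and 0.63 for the 55 brighter. Without array 3 the medians between untreated genotypes were 0.03 and 0.31.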

How the data were processed

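Total RNA was extracted with Trizol and labelled as biotinylated cRNA, per the labels' protocols. The authors deposited log2 values summarised with RMA, per the submitters' processing notes; its version was not given in the sources used here, nor were the array type and the probe annotation's build. Of 25428 probe sets, 24704 symbols were used, with the brighter probe set where a symbol had more than 1, and 723 had no symbol. Genes above the array median on at least 3 of 12 arrays (13737) were fitted in limma 3.58.1 under R 4.3.3 with 4 group means over 12 arrays, moderated variances and Benjamini-Hochberg adjustment; SE is limma's. The calls were tested on simulated data. Counts over all 110 members come from the fit without the filter.

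The members, lists and rules were chosen with earlier results of these data known. Named were members that passed, the 5 with the smallest p in each comparison, the 5 with the highest mean and the 5 with the largest SD, a fixed set (Rmrp, Rpph1, Terc, all Scarna, Snord13, Snord17, Snord71, Snord118, Snora73a and Snora73b), the genes holding them and up to 2 genes per list and comparison. The 8 members of opposite sign in the mice were named after their values were seen. Holding genes were found by position without regard to strand; 6 members lay in more than 1 gene, Snord71 among them. Close copies (Snora73a and Snora73b, Scarna3a and Scarna3b) may share signal. Neither mature sequences nor promoters of the members were used here.

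The mouse label pairs the untreated and treated array of an animal. After subtracting group means, the 2 arrays of a mouse had correlations of 0.00733, 0.0864 and 0.130 (DKO) and -0.0623, 0.0566 and 0.0109 (WT). Alternatives were other filters, scalings, eBayes settings, array weights, the mouse as a block, only the arrays compared and each array left out.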

Additional observations from a re-analysis of the deposited data

Results flagged for a closer look

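Under Iso, 4 named members differed upwards in every WT mouse and downwards in every DKO mouse. The difference of the Iso effects, DKO minus WT, was -3.22 for Rmrp, -2.10 for Snord71, -1.01 for Snora81 and -0.82 for Snord118. In limma's test of that difference the first 3 had adjusted p-values of 0.102, 0.0952 and 0.307 and did not pass; Snord118 was dim, and its difference was not tested. These values use untreated DKO array 3. Without it they were -2.76 for Rmrp and -2.18 for Snord71 (adjusted p = 0.0481 each), -0.91 for Snora81 (adjusted p = 0.243) and -0.52 for Snord118, which read 4.20 on that array and at most 3.45 on the others. All 3 Iso-treated WT arrays lay above all untreated WT arrays for each of the 4, as for 6.53% of all genes. The 4 were chosen on these same values, so that order is no separate evidence.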

How the results depend on the processing

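Of 1101 values of named members under other settings, 1036 kept their direction and side of the threshold, 6 lost a call, 46 gained a call and 13 turned sign. With Iso in WT, where 0 members passed, 1 passed with trended and robust eBayes, 2 with array weights, 1 with the mouse as a random replicate block (Snord71, adjusted p = 0.0450), 2 with only the arrays compared, and 0 to 2 with an array left out; 0.0364% to 0.0437% of all genes passed in the first 4 of these. The block changed no other count of calls. With Iso in DKO, 10 passed with array weights (8.07% of all genes did) and 0 to 6 with an array left out, 6 without untreated DKO array 2 (4.4%). For the difference of the Iso effects 4 passed with array weights (0.371% of genes) and 0 to 4 with an array left out (4 without untreated DKO array 2, where 0.116% of genes passed, 2 without array 3, 1 without Iso-treated DKO array 2); its median over tested members, -0.70, was -0.21 with no filter, -0.42 with a filter at the 25th percentile and -0.84 to -0.42 with an array left out. Between untreated genotypes, where 2 passed, 1 passed with no filter, 15 with array weights (5.08% of genes), 0 with only the arrays compared and 1 to 10 with an array left out (10 without untreated DKO array 2, where 1.31% of genes passed, 1 without untreated DKO array 1 or untreated WT array 1). The median there, 0.62, was 0.14 with no filter, 0.23 with the lower filter and 0.26 to 0.82 with an array left out. Between genotypes with Iso, 1 passed with array weights (1.19% of genes), 1 with only the arrays compared (0.561%) and 0 to 1 with an array left out. Leaving out an array turned signs with Iso in WT for Rpph1 (-0.031 to 0.21) and Scarna3b (-0.080 to 0.33), and with Iso in DKO for Rpph1 (-0.25 to 0.17), Scarna6 (-0.14 to 0.32; -0.28 with array weights) and Snord17 (-0.83 to 0.15). It did so as well for Rpph1 in the difference of the effects (-0.35 to 0.064) and Scarna6 between genotypes with Iso (-0.10 to 0.43). The cause of these changes was not tested. A lower filter or none also lets dim genes in. Array weights lower the part of arrays far from their group, so those counts rest on fewer effective arrays. Untreated DKO arrays 1, 2 and 3 had weights of 2.61, 0.50 and 0.16. The counts with array weights that compare this group therefore rest mostly on its array 1. With 3 arrays a group, members near the array median limit what can be seen.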
